A study of Homo sapiens with 6 samples.

Results

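Toll-like receptors (TLRs) are membrane proteins that bind molecules of microbes and of damaged cells, and this account gives the RNA levels of 10 genes of this system in a pancreatic ductal adenocarcinoma (PDA) cell line with and without induced GLI2. The genes are the receptors TLR1, TLR2, TLR3, TLR4, TLR5 and TLR6, the co-receptor CD14, the TLR4 partner LY96 and the adaptors MYD88 and TICAM1. They were picked by name, with their values in this same comparison already known, and found as 10 of the 25442 genes of the expression table. For that reason their differences are given as a description with no test.

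YAPC is a human pancreatic cancer cell line, chosen by the study for its classical subtype. The 6 RNA-seq libraries all came from YAPC cells carrying the Dox-responsive transactivator rtTA and kept in doxycycline (Dox) for 6 days. The 3 YAPC-iEV libraries were from cells with the empty pRetroX-Tight-Puro vector and the 3 YAPC-iGLI2 libraries from cells with the same vector encoding GLI2. Both groups had thus received Dox and the vector, and they differ by design in GLI2, a transcription factor of the Hedgehog pathway. No library came from cells without Dox, so an effect of GLI2 and other differences between the engineered cells cannot be told apart. Below, rose and fell mean higher and lower in iGLI2 than in iEV. GLI2 itself was at 0.466, 0.412 and 0.344 FPKM in iEV and at 94.5, 207 and 195 FPKM in iGLI2, as the labels state. FPKM scales mapped fragments by transcript length and by the size of the library, so that levels of different genes can be set side by side. Nothing in the labels says whether replicates were separate cultures or lines, and the spread between them may be technical.

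In cells, TLRs pair at the plasma membrane or inside endosomes and pass a signal through short adaptor proteins to kinases and on to NF-kB and interferon regulatory factors, which switch on cytokine and chemokine genes. They are best known from macrophages and other myeloid cells, but epithelial cells, including those of ducts, carry some of them. TLR2 works as a pair with TLR1 or TLR6 on bacterial lipoproteins, TLR5 binds flagellin, TLR3 binds double-stranded RNA in endosomes, and TLR4 with LY96 (also called MD-2) binds lipopolysaccharide handed over by CD14.

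The libraries held epithelial transcripts, while most of the myeloid markers looked at were near 0. EPCAM was at 396 to 526 FPKM, while TYROBP was listed at 0 in all 6 libraries, PTPRC (CD45) was at most 0.0343 FPKM and SPI1 at most 0.0303 FPKM. Of 12 myeloid markers, 8 were under 1 FPKM in every library, but LYZ was at 5.45 to 14.2 FPKM and CD68 at 2.79 to 3.27 FPKM. In the fit described below 4 of the 12 were tested, with LAPTM5 called higher in iGLI2 and 3 not called. Of 8 epithelial markers 6 were tested. EPCAM and CDH1 were called higher, MUC1 lower (mean 21.7 FPKM in iEV and 3.61 FPKM in iGLI2) and 3 not called. The summed level of the 12 was 153 to 173 FPKM in iEV and 209 to 213 FPKM in iGLI2, most of it LAPTM5 (90.6 to 141 FPKM) and ITGB2 (44.1 to 75.6 FPKM). Both epithelial keratins KRT8 and KRT18 were listed at 0 in every library, which beside high KRT7 and KRT19 may be a failed estimate, so that 0 is not read as absence here. Summed fibroblast markers were 1.54 to 1.65 FPKM in iEV and 2.46 to 3.13 FPKM in iGLI2, and endothelial and lymphoid markers 1.15 to 1.33 FPKM and 1.26 to 1.68 FPKM. Most of the fibroblast sum was COL1A1, at 1.29 to 1.54 FPKM in iEV and 2.28 to 2.98 FPKM in iGLI2. The other 7 of the 8 fibroblast markers were under 1 FPKM in every library. The part of any of these in the differences below was not tested, and as these are bulk samples, fewer cells with a transcript and less of it per cell cannot be told apart.

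Replicate 1 was often the lowest library of its group. Its FPKM total without small RNA genes was also the lowest, 535649 beside 558978 and 549111 in iEV and 490664 beside 530190 and 536744 in iGLI2. How far these totals account for the low values of replicate 1 was not tested. Among all 12493 genes tested, replicate 1 was the lowest in both groups for 4237 (33.9%), against 1005 for replicate 2 and 1379 for replicate 3, and it was so for 14 of the 16 tested cytokine, chemokine and other output genes of the pathway (87.5%). Over all tested genes, iEV replicate 1 correlated with the other iEV libraries (0.9452 and 0.9455) about as they did with each other (0.9466). By contrast, iGLI2 replicate 1 was less like the other iGLI2 libraries (0.9345 and 0.9356) than they were like each other (0.9451). GLI2 was also lower in iGLI2 replicate 1 (94.5 FPKM) than in iGLI2 replicates 2 and 3 (207 and 195 FPKM), and the part of this in the values of that library was not tested. Each count that leads a paragraph is therefore also given without replicate 1 of either group, a setting chosen after seeing the data.

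Of the 10 genes, 9 averaged 1 FPKM or more across all libraries and entered the fit over all 12493 such genes. CD14, TLR2 and TLR3 were lower in iGLI2 and TLR5 and LY96 higher by more than TLR4, TLR6, MYD88 and TICAM1 differed. The threshold used for all other genes would call those 5 of the 9, beside 21.9% of all genes (10.1% higher and 11.8% lower). As the genes were picked on this contrast, that count is no test of them and nothing is read from it. All libraries of a group lay on one side of the other group for 7 of the 9 genes, 3 higher and 4 lower, against 42.0% of all genes (19.2% higher and 22.8% lower). Among all calls 46.0% were higher in iGLI2, and 59.4% when small RNA genes were left out and the libraries rescaled. Without replicate 1 of either group the threshold would call 6 of the 9, with TICAM1 added. In that setting it called 5562 of all 12503 genes tested. The 9 differences ran from -1.18 for TLR2 to 1.15 for LY96 on the log2(FPKM + 1) scale, with a median of -0.14 beside -0.01 for all genes. The summed level of the 10 genes was 50.3 to 54.3 FPKM in iEV and 56.0 to 58.8 FPKM in iGLI2. This sum does not stand for the set, as the mean of LY96 alone was 8.31 FPKM in iEV and 19.3 FPKM in iGLI2. Means of CD14, TLR2, TLR3, MYD88 and TICAM1 were lower in iGLI2, and those of TLR1, TLR4, TLR5 and TLR6 higher.

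**Figure D1:**
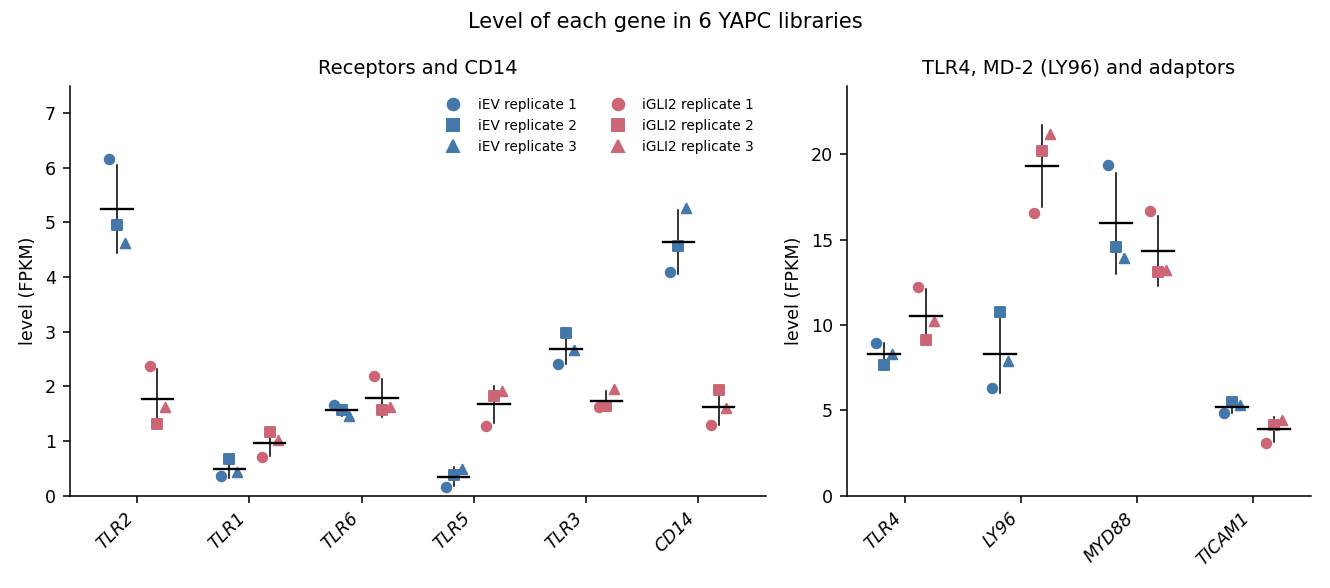
Level in FPKM (linear axis from 0) of the 10 genes in each of the 6 libraries, with iEV in blue and iGLI2 in red, a symbol for each replicate number, a bar for the mean of 3 and a line for 1 SD on each side. CD14, TLR2 and TLR3 sit lower in all 3 iGLI2 libraries than in any iEV library, and TLR5 and LY96 higher, while MYD88 and TLR6 overlap.

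TLR2, the shared partner of the lipoprotein-sensing receptor pairs, had the largest difference of the 9 genes on the log2(FPKM + 1) scale with all libraries. LY96 was close behind, and TLR5 was ahead of both as a ratio. The lead did not hold in every setting. LY96 was ahead without iEV replicate 2 (1.33 against -1.21) and after leaving out small RNA genes and rescaling (1.22 against -1.12). CD14 was ahead without iEV replicate 1 (-1.18 against -1.08) or iGLI2 replicate 2 (-1.20 against -1.06), and TLR5 with a pseudocount of 0.1 (2.05 against -1.54). The gene lies on the plus strand at chr4:154605441-154627242 (hg19), and the representative transcript has 3 exons. TLR2 was at 6.16, 4.95 and 4.62 FPKM in iEV replicates 1, 2 and 3 and at 2.38, 1.32 and 1.62 FPKM in iGLI2 replicates 1, 2 and 3. All 3 iGLI2 libraries were below all iEV libraries, and replicate 1 was the highest of its group in both. The mean was 5.24 ± 0.807 FPKM in iEV and 1.77 ± 0.550 FPKM in iGLI2 (SD, n = 3 each), 2.96-fold lower, a log2 difference of -1.18 (SE 0.17) and of -1.23 without replicate 1.

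CD14, the glycolipid-anchored co-receptor that delivers lipopolysaccharide to TLR4 and lipoproteins to TLR2, was lower by about as much. It is a short gene with 2 exons on the minus strand at chr5:140011313-140013286, and 0 of the 1307 stretches of 50 bases in its transcript occur in a transcript of another gene. In iEV its levels were 4.10, 4.57 and 5.26 FPKM, and in iGLI2 they were 1.30, 1.94 and 1.61 FPKM. The highest iGLI2 library lay below the lowest iEV library, and here replicate 1 was the lowest of its group. Means were 4.64 ± 0.583 and 1.62 ± 0.319 FPKM (SD, n = 3 each), 2.87-fold lower, with a log2 difference of -1.11 (SE 0.12). Leaving out 1 library at a time kept the ratio of iGLI2 to iEV between 0.313 and 0.382.

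TLR5, the flagellin receptor, went the other way from a low level. It has 6 exons on the minus strand at chr1:223282748-223316624. The iEV libraries held 0.159, 0.385 and 0.496 FPKM, and the iGLI2 libraries 1.28, 1.82 and 1.92 FPKM. Every iGLI2 library was above every iEV library, with means of 0.347 ± 0.172 and 1.67 ± 0.342 FPKM (SD, n = 3 each), a ratio of 4.82 that ran from 3.79 to 6.14 as each library was left out. The log2 difference of 0.99 (SE 0.15) understates this ratio, since 1 FPKM is added before the logarithm. With a mean of 1.01 FPKM over the 6 libraries, TLR5 passed the filter on low values only through the group in which it is high, and it dropped under the filter when any 1 of the 3 iGLI2 libraries was left out.

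CD14 and TLR2 were the 2 genes with the most negative differences and TLR5 the one with the largest ratio, so the 250 bases before their RefSeq start sites (GRCh38.p14, 5′ to 3′ on the strand of the gene) are printed here, with a match to the AP-1 motif in capitals.
CD14, chr5:140633176-140633425, minus strand: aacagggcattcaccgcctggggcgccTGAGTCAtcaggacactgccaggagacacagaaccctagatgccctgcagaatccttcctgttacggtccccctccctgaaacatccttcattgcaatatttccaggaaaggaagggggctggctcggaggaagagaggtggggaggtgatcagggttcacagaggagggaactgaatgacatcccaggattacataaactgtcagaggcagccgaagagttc
TLR2, chr4:153684030-153684279, plus strand: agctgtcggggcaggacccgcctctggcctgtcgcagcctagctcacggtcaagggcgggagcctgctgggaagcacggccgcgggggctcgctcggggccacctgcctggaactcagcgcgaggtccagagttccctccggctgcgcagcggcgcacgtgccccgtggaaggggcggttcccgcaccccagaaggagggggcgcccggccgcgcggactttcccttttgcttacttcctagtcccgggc
TLR5, chr1:223143249-223143498, minus strand: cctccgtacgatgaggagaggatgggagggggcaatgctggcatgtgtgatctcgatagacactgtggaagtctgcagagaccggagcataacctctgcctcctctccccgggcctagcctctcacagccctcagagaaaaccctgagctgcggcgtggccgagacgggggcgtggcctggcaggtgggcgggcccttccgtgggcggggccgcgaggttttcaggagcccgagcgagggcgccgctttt
Promoter windows from 250 bases before to 50 bases after the start were on hand for 8 of the 10 genes, those other than TLR1 and LY96. The GLI motif GACCACCCA was in 0 of the 8 windows on either strand and in 83 of 35116 promoters (0.236%). The AP-1 motif TGANTCA was in the CD14 window alone and in 7.71% of promoters, and a match to the NF-kB consensus was in the TICAM1 window alone and in 11.3% of promoters. These matches are letters in a window and not binding sites. GC content also varied, at 72.7% for TLR2, 70.0% for TICAM1, 68.3% for TLR5 and 65.7% for MYD88. It was 55.7% for CD14, 48.3% for TLR4, 40.3% for TLR3 and 34.7% for TLR6. The median over all promoters was 58.7%.

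TLR3, the endosomal receptor for double-stranded RNA, was lower in iGLI2 by a smaller margin. It has 5 exons on the plus strand at chr4:186990309-187006252. Its levels were 2.42, 2.97 and 2.66 FPKM in iEV and 1.62, 1.64 and 1.95 FPKM in iGLI2. The ranges did not overlap, and means were 2.68 ± 0.277 and 1.74 ± 0.183 FPKM (SD, n = 3 each), a log2 difference of -0.43 (SE 0.095). With 1 library left out at a time the difference lay between -0.48 and -0.37.

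LY96, the soluble partner that gives TLR4 its lipopolysaccharide pocket, had the largest difference in FPKM of the 10 genes. It has 5 exons on the plus strand at chr8:74903564-74941307. The level was 6.29, 10.8 and 7.87 FPKM in iEV and 16.6, 20.2 and 21.2 FPKM in iGLI2. The lowest iGLI2 library was above the highest iEV library, and in both groups replicate 1 was the lowest. Means were 8.31 ± 2.27 and 19.3 ± 2.42 FPKM (SD, n = 3 each), a ratio of 2.32 (2.07 to 2.73 with each library left out) and a log2 difference of 1.15 (SE 0.19), or 1.08 without replicate 1.

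TLR4 itself, at chr9:120466453-120479769 on the plus strand with 3 exons, differed less than both of its partners. Of its 13277 exonic bases, 678 (5.11%) overlap exons of another annotated gene on the same strand. It was at 8.97, 7.66 and 8.29 FPKM in iEV and at 12.2, 9.11 and 10.2 FPKM in iGLI2. Each iGLI2 library was above each iEV library, though iGLI2 replicate 2 exceeded iEV replicate 1 by less than the SD of either group. Means were 8.31 ± 0.652 and 10.5 ± 1.58 FPKM (SD, n = 3 each), with a log2 difference of 0.30 (SE 0.11).

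TLR1 and TLR6, the partners of TLR2, lie next to each other on the minus strand of chromosome 4, at chr4:38797876-38806412 and chr4:38825329-38858438, with 4 and 2 exons. TLR6 was at 1.66, 1.57 and 1.46 FPKM in iEV and at 2.19, 1.57 and 1.62 FPKM in iGLI2. The groups overlapped around means of 1.56 ± 0.0982 and 1.79 ± 0.343 FPKM (SD, n = 3 each) with a log2 difference of 0.12 (SE 0.11), reduced to 0.02 without iGLI2 replicate 1. TLR1 was at 0.358, 0.676 and 0.429 FPKM in iEV and at 0.711, 1.17 and 1.01 FPKM in iGLI2. These groups did not overlap, with means of 0.488 ± 0.167 and 0.965 ± 0.234 FPKM (SD, n = 3 each) and a ratio of 1.98 (1.75 to 2.45 with each library left out), but the mean of 0.726 FPKM over all libraries kept TLR1 out of the fit. The genes share sequence, as 238 of the 2802 stretches of 50 bases in the TLR1 transcript (8.49%) and 317 of the 6649 in the TLR6 transcript (4.77%) also occur in other genes, mostly each other. How reads in these stretches were divided is not given in the sources used here, and the levels of both genes are uncertain to that extent.

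MYD88, the adaptor that every receptor of the list other than TLR3 uses, was the most abundant of the 10 in iEV and overlapped between groups. It has 5 exons on the plus strand at chr3:38179969-38184512. The values were 19.4, 14.5 and 13.9 FPKM in iEV and 16.7, 13.1 and 13.2 FPKM in iGLI2. Replicate 1 was the highest in both groups, and the group means of 15.9 ± 2.98 and 14.3 ± 2.03 FPKM (SD, n = 3 each) differed by less than 1 SD. The log2 difference was -0.14 (SE 0.15), and 0.0013 without iEV replicate 1.

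TICAM1 (TRIF), the adaptor of TLR3 and of internalized TLR4, was lower by a small margin. It has 2 exons on the minus strand at chr19:4815936-4831754. Levels were 4.82, 5.47 and 5.31 FPKM in iEV and 3.06, 4.13 and 4.44 FPKM in iGLI2. The groups did not overlap, and replicate 1 was the lowest in each. Means were 5.20 ± 0.340 and 3.88 ± 0.722 FPKM (SD, n = 3 each), with a log2 difference of -0.36 (SE 0.12), or -0.27 without replicate 1 of either group.

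The order of the levels changed between the groups. In iEV it ran from MYD88 through LY96 and TLR4, then TLR2, TICAM1 and CD14, then TLR3 and TLR6, to TLR1 and TLR5. Neighbours that did not differ beyond their spread there were LY96 and TLR4, TLR2 and TICAM1, TICAM1 and CD14, and TLR1 and TLR5. In iGLI2, LY96 (19.3 FPKM) and MYD88 (14.3 FPKM) led, with libraries that overlapped, followed by TLR4 and TICAM1. TLR6, TLR2, TLR3, TLR5 and CD14 then lay together between means of 1.62 and 1.79 FPKM, each overlapping the next, and TLR1 was last. Among all tested genes, CD14 went from percentile 26.8 of the iEV means to 7.17 of the iGLI2 means, TLR2 from 29.7 to 8.50, TLR5 from 0.977 to 7.60 and LY96 from 41.3 to 64.6.

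**Figure D2:**
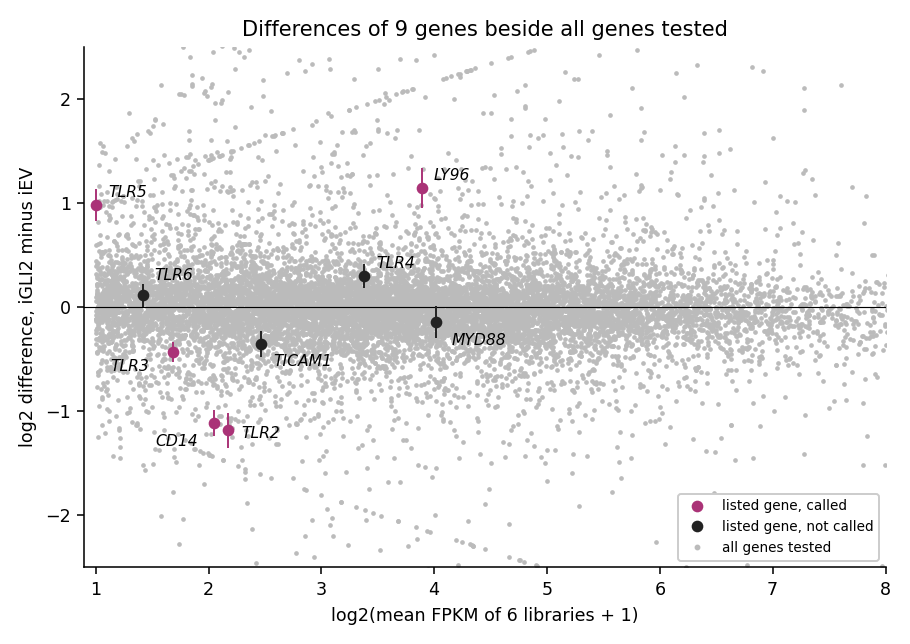
Log2 difference (iGLI2 minus iEV, log2(FPKM + 1) scale) against log2 of the mean FPKM plus 1 for the 9 genes in the fit, with lines of 1 SE, over all genes tested in grey; 413 genes lie outside the axes. TLR2 and CD14 sit near -1.1 to -1.2, LY96 and TLR5 near 1, and the others within 0.5 of 0.

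The 3 tested genes whose pattern over the 6 libraries was most like that of TLR2 on the log2 scale were AMIGO2 (Pearson r = 0.9988), GATM (0.9984) and FARP1 (0.998). Like TLR2, they were lower in all iGLI2 libraries and highest in replicate 1 of each group. AMIGO2, a membrane protein with leucine-rich repeats, was at 95.2, 80.1 and 75.6 FPKM in iEV and at 47.7, 33.6 and 35.4 FPKM in iGLI2. These values come from the same 6 libraries in 2 groups and are a description.

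The rest of the pathway was followed on 7 lists of 140 genes, grouped by role and chosen with earlier results of these data known, of which 105 were tested. Of those, 26 passed the test (24.8%), 8 higher and 18 lower, next to 21.9% of all genes, with a median log2 difference of -0.16. Replicates 2 and 3 alone gave more calls in each list, as stated below. They also gave more among all genes, 5562 of 12503 tested, 2706 higher and 2856 lower.

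No other Toll-like receptor reached 1 FPKM. TLR7, TLR9 and TLR10, named because they complete the family, were at most 0.168, 0.0494 and 0.136 FPKM, and TLR8 was listed at 0 in 5 libraries and at 0.00902 FPKM in iGLI2 replicate 1. The lipopolysaccharide-binding protein LBP, named after its values were seen, was at most 0.0691 FPKM. Among the 16 further receptors, chaperones and cofactors, 6 were tested and 1 fell, LRRC59, which helps move endosomal receptors out of the endoplasmic reticulum. It was at 122, 121 and 119 FPKM in iEV and at 87.2, 88.5 and 91.4 FPKM in iGLI2, a log2 fold change of -0.43 (SE 0.05, limma adjusted p = 0.00351). HSP90B1 (gp96), the chaperone that TLRs need to fold, was at 217, 226 and 252 FPKM in iEV and at 251, 307 and 307 FPKM in iGLI2 and was not called (adjusted p = 0.092). Without replicate 1, or without iGLI2 replicate 1 alone, 3 genes of this list were called. Among all genes these settings called 5562 of 12503 and 3744 of 12495.

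Of the 28 adaptors, kinases and ubiquitin ligases that act downstream of the receptors, 3 rose and 3 fell. PELI2, a ubiquitin ligase of the Pellino family that acts on IRAK kinases, rose from 4.63, 4.69 and 4.61 FPKM to 8.83, 8.71 and 8.62 FPKM, a log2 fold change of 0.78 (SE 0.05, adjusted p = 0.000507). MAPK8 (JNK) rose by 0.52 (adjusted p = 0.00659) and TAB2, a partner of the kinase TAK1, by 0.56 (adjusted p = 0.0113). The kinase IKBKE, which phosphorylates interferon regulatory factors, was at 10.7, 15.2 and 14.5 FPKM in iEV and at 3.53, 5.12 and 5.29 FPKM in iGLI2, a log2 fold change of -1.36 (SE 0.18, adjusted p = 0.00453). MAP2K6, a kinase above p38, had a log2 fold change of -0.42 (adjusted p = 0.00768) and MAP3K8 (TPL2) one of -0.74 (adjusted p = 0.0222). The 28 genes had a median of 0.05, and the share called was 21.4%. The TAB2 call was lost without iEV replicate 3 (adjusted p = 0.0536) or iGLI2 replicate 2 (0.0507), and that of MAP3K8 without iEV replicate 2 (0.0821), iEV replicate 3 (0.0848) or iGLI2 replicate 2 (0.0695). Without replicate 1 of either group 14 of the 28 were called, 7 in each direction, beside 5562 of all 12503 genes.

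The list of negative regulators of the pathway split as well, with 2 of 18 tested genes rising and 3 falling. It also holds genes with activating roles, such as IRAK2 and PELI1, so its counts do not stand for inhibitors alone. SIGIRR, a decoy-like receptor that dampens TLR and interleukin-1 signaling, fell from 42.1, 40.1 and 39.6 FPKM to 22.8, 23.2 and 25.4 FPKM, a log2 fold change of -0.75 (SE 0.06, adjusted p = 0.00111). TOLLIP, an inhibitor that binds IRAK kinases, fell from 30.3, 26.0 and 26.2 FPKM to 17.4, 16.4 and 16.9 FPKM (log2 fold change -0.67, SE 0.08, adjusted p = 0.0029). DUSP1, a phosphatase of p38 and JNK, had a log2 fold change of 0.81 (adjusted p = 0.00829). The deubiquitinase CYLD had a log2 fold change of -0.44 (adjusted p = 0.0112) and PELI1 one of 0.38 (adjusted p = 0.0461), and both calls were lost in most leave-one-out fits, CYLD with an adjusted p of 0.0554 without iEV replicate 2, 0.0511 without iEV replicate 3, 0.0516 without iGLI2 replicate 2 and 0.0502 without iGLI2 replicate 3, and PELI1 with 0.106 without iEV replicate 1, 0.151 without iEV replicate 3, 0.0537 without iGLI2 replicate 1, 0.133 without iGLI2 replicate 2 and 0.136 without iGLI2 replicate 3. IRAK3 (IRAK-M), named after its values were seen, was at 6.90, 7.62 and 8.06 FPKM in iEV and at 7.04, 36.1 and 38.1 FPKM in iGLI2, so that replicate 1 lay within the iEV range and replicates 2 and 3 far above it. IRAK3 was not called (adjusted p = 0.16). PELI3, also named after its values were seen and not called, was listed at 6.95, 7.97 and 0 FPKM in iEV. In iGLI2 it was at 7.87, 11.5 and 10.6 FPKM, and the 0 may be a failed estimate. Without replicate 1, 11 of the 18 were called, 2 higher and 9 lower with IRAK2 among the lower, beside 5562 of all 12503 genes.

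Among 13 tested NF-kB and interferon regulatory factors and inhibitors, 4 fell and 0 rose, beside 11.8% lower and 10.1% higher among all genes. All but NFKBIZ had a negative difference, with a median of -0.47. The NFKBIZ entry is merged with NXPE3, so its value does not show NFKBIZ alone. The factors that fell were NFKB1 (log2 fold change -0.48, SE 0.12, adjusted p = 0.0422), NFKB2 (-0.95, SE 0.20, adjusted p = 0.021) and IRF1 (-0.72, SE 0.15, adjusted p = 0.0218), and the inhibitor NFKBIE fell with them (-0.57, SE 0.15, adjusted p = 0.0398). IRF1, a transcription factor of the interferon response, was at 38.5, 51.8 and 50.2 FPKM in iEV and at 23.6, 30.7 and 29.6 FPKM in iGLI2. NFKBIA, the most abundant of the list and not called, was at 114, 199 and 198 FPKM in iEV and at 76.0, 138 and 139 FPKM in iGLI2, and shows how replicate 1 lay below the others in each group. No call was left without iEV replicate 2 or without iEV replicate 3, where the adjusted p of the 4 ran from 0.081 to 0.136, and 2, 2 and 1 genes were called without iGLI2 replicates 1, 2 and 3. Without replicate 1 of either group 9 of the 13 were called, all lower. In that setting 5562 of all 12503 genes were called, 2856 of them lower.

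The 22 output genes, cytokines, chemokines and other products that NF-kB is known to switch on, gave 1 call among the 16 tested. CXCL5, a neutrophil-attracting chemokine, was at 101, 127 and 124 FPKM in iEV and at 31.4, 28.4 and 27.8 FPKM in iGLI2, a log2 fold change of -1.96 (SE 0.11, adjusted p = 0.00033). CXCL8, the most abundant gene not called, was at 53.6, 170 and 171 FPKM in iEV and at 83.8, 220 and 201 FPKM in iGLI2. In both groups its replicate 1 was less than 0.5 times replicates 2 and 3. The median log2 difference of the 16 was -0.54. Without iEV replicate 1, 5 of the 16 were called, and without replicate 1 of either group 11 were, 2 higher and 9 lower. Among all genes these settings called 2165 of 12498 and 5562 of 12503.

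**Figure D3:**
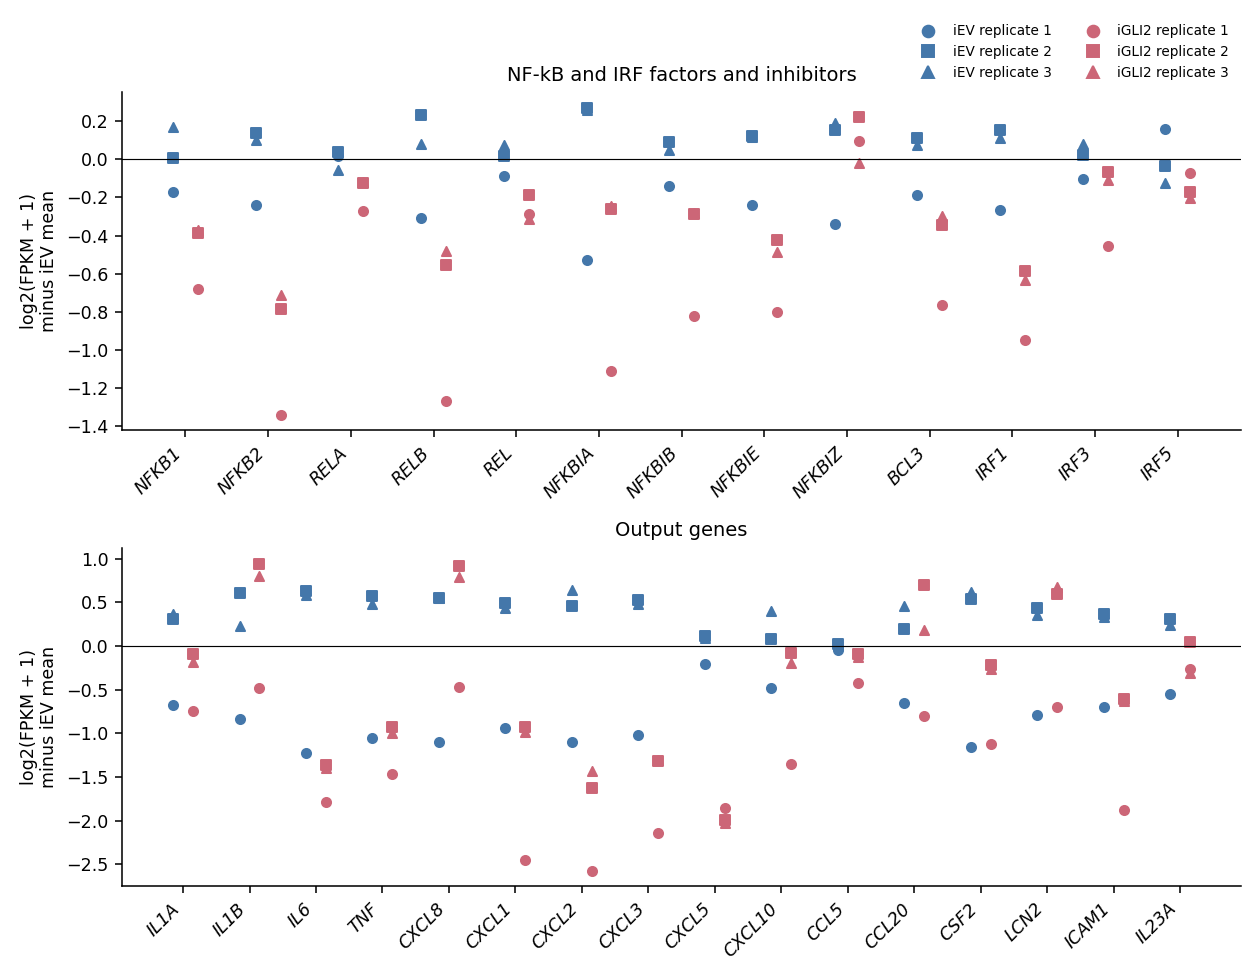
Log2(FPKM + 1) in each library minus the iEV mean of the gene, for the 13 tested NF-kB and interferon regulatory factors and inhibitors (top) and the 16 tested output genes (bottom), with iEV in blue, iGLI2 in red and a symbol for each replicate number. Circles, replicate 1, are the lowest of both groups for 9 of the 13 and 14 of the 16 genes, and CXCL5 is about 2 units lower in all iGLI2 libraries.

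Of 16 genes for endogenous ligands of TLR2 and TLR4, 9 were tested, 1 rose and 4 fell. One of the 9, HSPD1, named after its values were seen, was not called. It was listed at 0, 474 and 0 FPKM in iEV and at 388, 372 and 370 FPKM in iGLI2, where each 0 may be a failed estimate. Tenascin-C (TNC), a matrix protein known as a TLR4 ligand, was at 3.34, 3.45 and 3.40 FPKM in iEV and at 6.62, 12.4 and 12.8 FPKM in iGLI2 (log2 fold change 1.35, SE 0.23, adjusted p = 0.0119). Fibronectin (FN1) fell from 5.71, 4.68 and 4.99 FPKM to 2.83, 3.05 and 2.65 FPKM (log2 fold change -0.67, SE 0.09, adjusted p = 0.00449). The acute-phase protein SAA1 was at 10.8, 39.9 and 41.3 FPKM in iEV and at 1.63, 6.92 and 4.74 FPKM in iGLI2 (log2 fold change -2.47, SE 0.63, adjusted p = 0.0396). SAA2, which the table merges with SAA4 and which is a near copy of SAA1, so that reads may be divided between them, had a log2 fold change of -2.04 (adjusted p = 0.0222), and HMGB1, a chromatin protein with many pseudogene copies, one of -0.34 (adjusted p = 0.037). The HMGB1 call was lost under each other scaling, with an adjusted p of 0.0643 after upper quartile scaling, 0.11 after quantile normalization and 0.131 after leaving out small RNA genes and rescaling. The FN1 call held in every leave-one-out fit, but those of TNC (up to 0.0511), SAA2 (up to 0.0827) and SAA1 (up to 0.13) were lost without iEV replicate 2 or iEV replicate 3, that of HMGB1 (up to 0.129) without any 1 library other than iGLI2 replicate 1, and those of SAA1 and SAA2 also without iGLI2 replicates 2 or 3, and SAA1 without iGLI2 replicate 1. Without replicate 1 of either group 6 were called, of 10 that then passed the filter, beside 5562 of all 12503 genes.

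Cytosolic sensors, which detect nucleic acids or peptidoglycan without a Toll-like receptor, were followed beside the 10 genes as other routes to NF-kB and interferon factors. Of 15 tested, the kinase RIPK2 of the NOD pathway (log2 fold change 0.37, adjusted p = 0.0409) and EIF2AK2 (PKR), which like TLR3 binds double-stranded RNA (0.29, adjusted p = 0.0224), rose. DDX58 (RIG-I), a helicase that senses viral RNA, was at 29.0, 26.1 and 26.0 FPKM in iEV and at 22.1, 21.6 and 21.4 FPKM in iGLI2 (-0.30, adjusted p = 0.0232, and 0.103 after leaving out small RNA genes and rescaling), and NLRC5 fell by 0.45 on the log2 scale (adjusted p = 0.0114). All 4 changes were under 0.5 on the log2 scale with a list median of -0.05, and 0 calls were left without iEV replicate 2, 1 without iEV replicate 3, iGLI2 replicate 2 or iGLI2 replicate 3, and 2 without iEV replicate 1. Without replicate 1 of either group 10 of the 15 were called, 4 higher and 6 lower, beside 5562 of all 12503 genes.

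**Figure D4:**
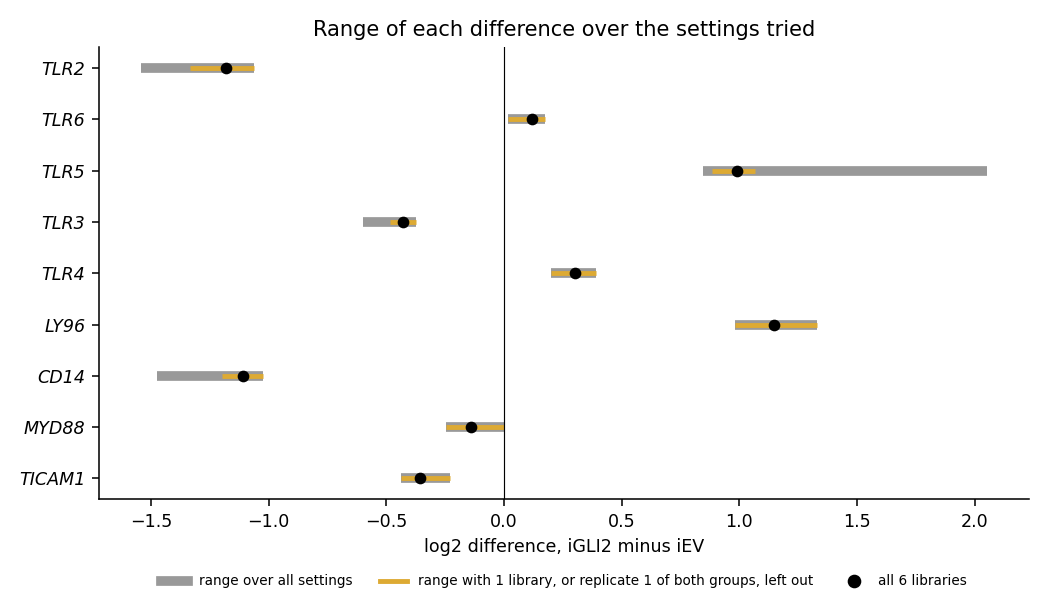
Log2 difference (iGLI2 minus iEV) of the 9 genes in the fit, with all 6 libraries as a point, the range over the settings tried in grey and the range with 1 library or replicate 1 of both groups left out in yellow. CD14, TLR2 and TLR3 stayed below 0 and TLR4, TLR5, TLR6 and LY96 above it in each setting that kept the gene in the fit, TICAM1 stayed below 0, and MYD88 reached 0.0013; a filter at 5 FPKM removed CD14, TLR2, TLR3, TLR5, TLR6 and TICAM1, and TLR5 also had no value when a single iGLI2 library was left out.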

How the data were processed

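The authors trimmed the reads, aligned them to hg19 with TopHat2 and used Cuffdiff 2.1.1, per the labels and the paper's methods, from TruSeq libraries of total RNA; the gene annotation, strand setting and treatment of reads with several matches are not given in the sources used here. The deposited values were taken as FPKM, a unit the table does not name and which was inferred from its values, and they cannot be turned into counts, so that depth is unknown and no counting interval or detection limit is given. Totals were 981344 to 1082687 FPKM in iEV and 803149 to 889559 in iGLI2, of which small RNA genes took 45.4 to 48.4% and 38.9 to 40.4%, shares that depend on very short lengths.

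Of 27024 entries, 1252 off the primary chromosomes and 330 with a lower mean than another of the same name were left out. Entries that merge several names (337 kept) went under the merged name, and 0 columns of values were without a sample. The 12493 genes that averaged 1 FPKM or more were tested as log2(FPKM + 1), so that changes of low genes are understated, with limma 3.58.1 in R 4.3.3 (two-sided, intensity trend, condition only, Benjamini-Hochberg adjustment over all genes, threshold 0.05). On simulated data with 200 changed genes, 98.9% of those changed 4-fold and 84.8% of those changed 2-fold were recovered, with 11 false calls. These changes were made to FPKM + 1, and only in genes above a minimum mean level. CD14, TLR3, TLR5 and TLR6 lay below that level, so the shares do not cover them. The simulated noise was independent between libraries and held no shift of replicate 1 shared by many genes. An exact permutation test of 3 against 3 libraries cannot go below 0.1 and was not used. Loci are 1-based hg19 coordinates from the table. Exons and overlaps came from GENCODE release 44 lifted to GRCh37, and promoters from RefSeq. Python 3.11.15 and matplotlib 3.10.9 drew the plots.

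The 10 genes and all lists were chosen with earlier results of these data known. The genes named are the 10, in each list those called (at most 4 in each direction), in some lists the most abundant one not called, and the 3 nearest to TLR2 in pattern. GLI2 and markers of cell types are also named, and IRAK2 is named for its role. Others are said to have been named after seeing their values. Alternatives were scaling, pseudocount, filter, block terms, limma without trend and leaving out libraries.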

Additional observations from a re-analysis of the deposited data

How the results depend on the processing

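The limits of depth are unknown for FPKM, and 3 libraries per group of one line limit every test. Among the 9 genes of interest no difference reversed where called, and 131 values under the alternatives moved by less than the spread between replicates; another 4, all with a pseudocount of 0.1, were -1.48 for CD14, -1.54 for TLR2, -0.60 for TLR3 and 2.05 for TLR5. Of the values of the other named genes under the alternatives, 337 kept their call, 74 lost it and none changed sign. With a filter at a mean of 5 FPKM, which removes most of the 9 genes, 1 of them (LY96) was left as called, and 3 negative regulators. Leaving out small RNA genes and rescaling gave 3018 calls, 59.4% of them higher against 46.0% of the 2742 calls, with 3 receptors and cofactors and 3 output genes called, and quantile normalization gave 2 and 2.

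Leaving out 1 library, or replicate 1 of both groups, moved the calls among all genes between 1222 and 5562. For the 9 genes the count ran from 3 to 6, for receptors and cofactors from 1 to 3, for adaptors and kinases from 4 to 14, for negative regulators from 3 to 11, for NF-kB and interferon factors from 0 to 9, for output genes from 1 to 11, for ligands from 1 to 6 and for cytosolic sensors from 0 to 10. Without replicate 1 of both groups the counts were 5562 for all genes, 3 for receptors, 14 for adaptors, 11 for negative regulators, 9 for NF-kB, 11 for output genes and 10 for sensors.

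The replicate numbers are shared by the groups, but same-numbered libraries correlated in their deviations from the group means at 0.204, 0.0919 and 0.0276. As iGLI2 replicate 3 correlated better with iEV replicate 2 (0.117) than with its own number, the numbers were not taken to pair all libraries. The 0.204 of the libraries numbered 1 was the highest of all pairs across the groups, and any shift they share is not modelled in the main fit. With the replicate number as a block, 3928 genes were called, 7 of the 9 genes (TLR4 and TICAM1 added), and 2 receptors, 11 adaptors, 8 negative regulators, 8 NF-kB factors, 9 output genes, 5 ligands and 8 sensors. Blocking on the number inside each library code called 2084 genes.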
